A study of Mus musculus with 50 samples.

Results

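M1 macrophages were compared with unpolarised M0 macrophages. The series holds 50 samples, most of them digit tissue after amputation, and 6 of them are described here, namely the 3 libraries labelled M1_24h and the 3 labelled MO_Baseline, chosen by their labels alone. All 6 were made from cultured bone marrow-derived macrophages, which are bone marrow cells grown into macrophages in medium conditioned by L929 fibroblasts, a source of the growth factor CSF1. According to the methods the marrow came from young adult female C57BL/6 mice. M1 cells received interferon-γ (IFN-γ) together with bacterial lipopolysaccharide (LPS) for 24 h in basal medium without the conditioned supplement, and M0 cells received basal medium with neither agent. The label of M0 gives no time, so it is not known from the labels whether M0 cells spent the same 24 h in basal medium. A further 3 libraries, M2, were treated with interleukin-4 (IL-4) for 24 h and were used for the test of whether a level in M1 also differed from that in another polarised macrophage. No label says whether the replicates came from separate mice or cultures, so p-values measure the spread between these libraries, which may be technical.

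IFN-γ binds its receptor on the macrophage, activates the kinases JAK1 and JAK2 and turns on genes with gamma-activated sequences (GAS) in their promoters. LPS is sensed by TLR4 with its partners CD14 and LY96, and signals through MYD88 and TICAM1 to NF-κB, AP-1 and the interferon regulatory factors (IRFs); the IFN-β made in that way returns to the cell and drives a second set of genes through interferon-stimulated response elements (ISREs). Macrophages given both agents are known for killing microbes with nitric oxide and oxygen radicals, for presenting antigen, for secreting inflammatory cytokines and for a shift of their fuel use towards glycolysis.

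Each library held 15683424 to 27904773 expected counts. Counts were scaled by TMM, which sets the bulk of genes equal between libraries, and a gene was called when its edgeR quasi-likelihood p-value, adjusted over all genes by Benjamini-Hochberg, was under 0.05 and its mean normalised count plus 1 differed by more than 2-fold. Of 21954 genes, 12939 had enough counts to be tested. A gene near 0 in M0 could pass this filter through its M1 counts alone, and the reverse. In M1, 2602 were called higher (20.1%) and 3359 lower (26%), and together 46.1% were called in either direction. With library totals alone in place of TMM, the split was 1384 higher (10.7%) and 5890 lower (45.5%), so that rises made up 19% instead of 43.7% of all calls. That scaling moved the median log2 difference of all genes from -0.09 to -0.86. A rise then stayed past 2-fold when it was above 1.77 on the TMM log2 scale, and a fall was past 2-fold when below -0.23. Genes described below as short of 2-fold are so with TMM, unless another setting is named. Each list below is therefore given under both scalings. The share of all counts that a list takes is divided by the library total, and so follows the scaling by library totals. The sizes of the calls were spread widely: 319 genes rose and 244 fell by more than 16-fold, and 1423 rose and 1933 fell by 2- to 4-fold. The values of M0 and M1 did not overlap for 87.1% of genes tested. Mitochondrially encoded genes took 3.04 to 3.25% of counts in M0 and 0.861 to 0.999% in M1.

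Macrophage markers were present at high levels in every library. The 8 defining markers summed to 4853 to 5215 normalised TPM in M0 and 6185 to 6307 in M1. Normalised TPM do not sum to the same total in each library, with totals of 786283 to 820932 in M0 and 1331226 to 1355441 in M1, and as a share of the total the same markers were lower in M1, at 0.617 to 0.635% in M0 and 0.456 to 0.467% in M1. Of 11 neutrophil markers, 10 were tested and 9 were lower in M1, with sums of 413 to 425 normalised TPM in M0 and 40.2 to 55.5 in M1. Fibroblast and stroma markers summed to 679 to 1028 normalised TPM in M0 and 397 to 459 in M1, with collagen gene Col1a2 as the highest. Of these 8 markers, 7 were tested, 1 was higher and 4 were lower in M1. Defining markers of erythroid and NK cells were at or near 0. The part of neutrophil and stromal RNA in the results below was not tested, and in bulk libraries fewer cells of a type and less RNA per cell cannot be told apart.

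**Figure D1:**
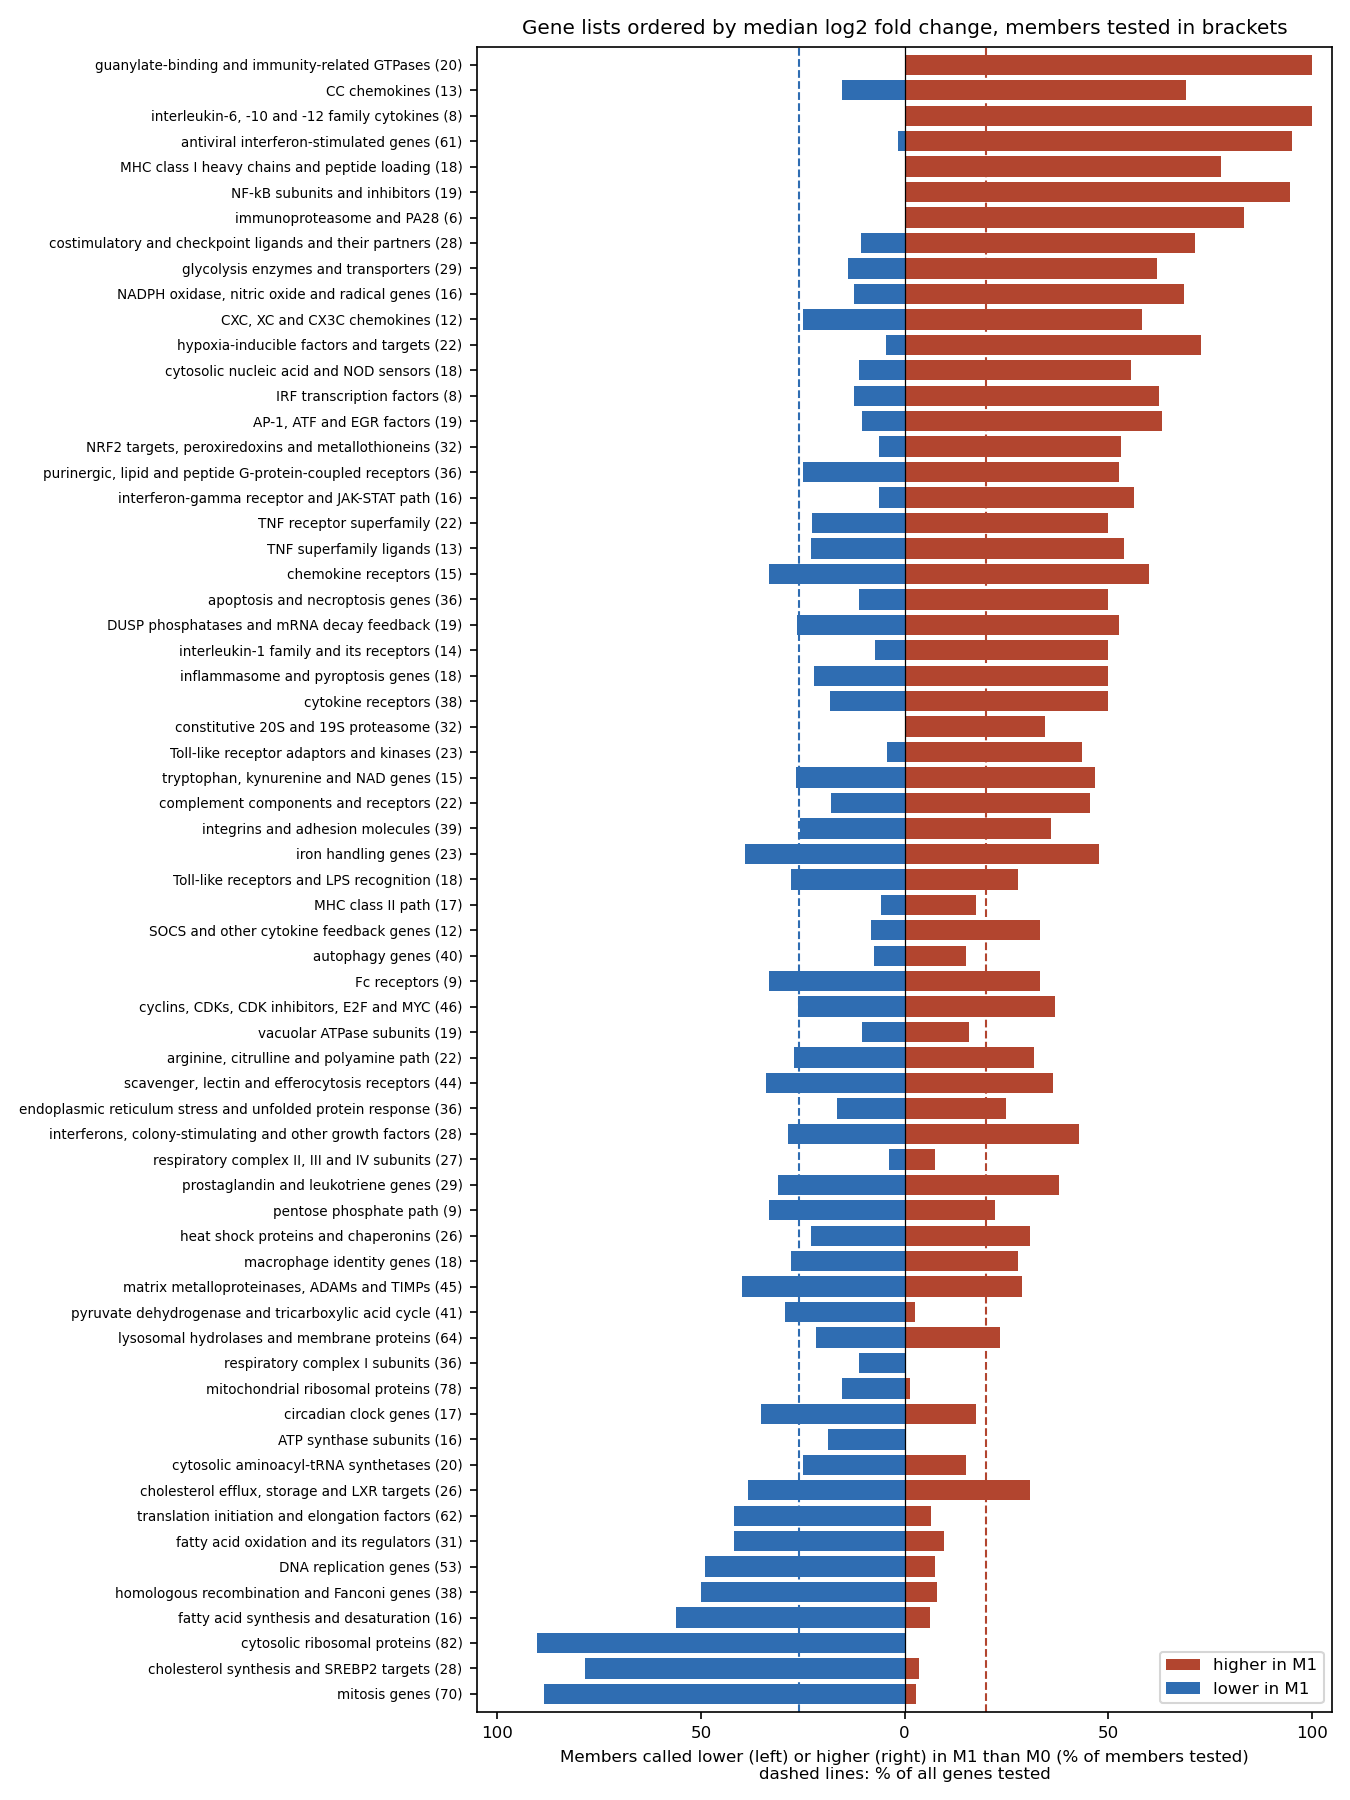
Share of the members tested in 65 gene lists that were called higher (red, to the right) or lower (blue, to the left) in M1 than in M0, in percent, with the lists ordered by median log2 fold change. Dashed lines mark the 20.1% and 26% of all genes tested, and the GTPase list at the top has every member called higher while mitosis, cholesterol synthesis and ribosomal protein lists lie at the bottom.

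Nos2, Acod1 and Ptgs2, which encode enzymes of inflammatory macrophages, were among the genes with large rises in M1. Nos2 (chr11:78920787-78960254 in GRCm38.p6, as all positions here), the inducible nitric oxide synthase, had normalised counts of 12.2, 31.2 and 18.1 in M0 and 132784, 132770 and 128162 in M1. Acod1 (chr14:103046977-103056573), which makes the antimicrobial metabolite itaconate, had 154, 143 and 126 in M0 and 183568, 184981 and 177426 in M1. The groups lay far apart and the libraries of each group lay close together. The log2 differences were 12.69 ± 0.15 (SE; edgeR adjusted p = 1.02e-14) for Nos2 and 10.33 ± 0.09 (edgeR adjusted p = 2.59e-15) for Acod1. Ptgs2, the inducible cyclooxygenase that makes prostaglandin precursors, showed 110.3, 92.7 and 121 in M0 and 91522, 90790.1 and 87086 in M1, a difference of 9.70 ± 0.09 on the log2 scale. All of these genes were also higher in M1 than in M2, by 8.77, 5.05 and 6.22 on the log2 scale.

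**Figure D2:**
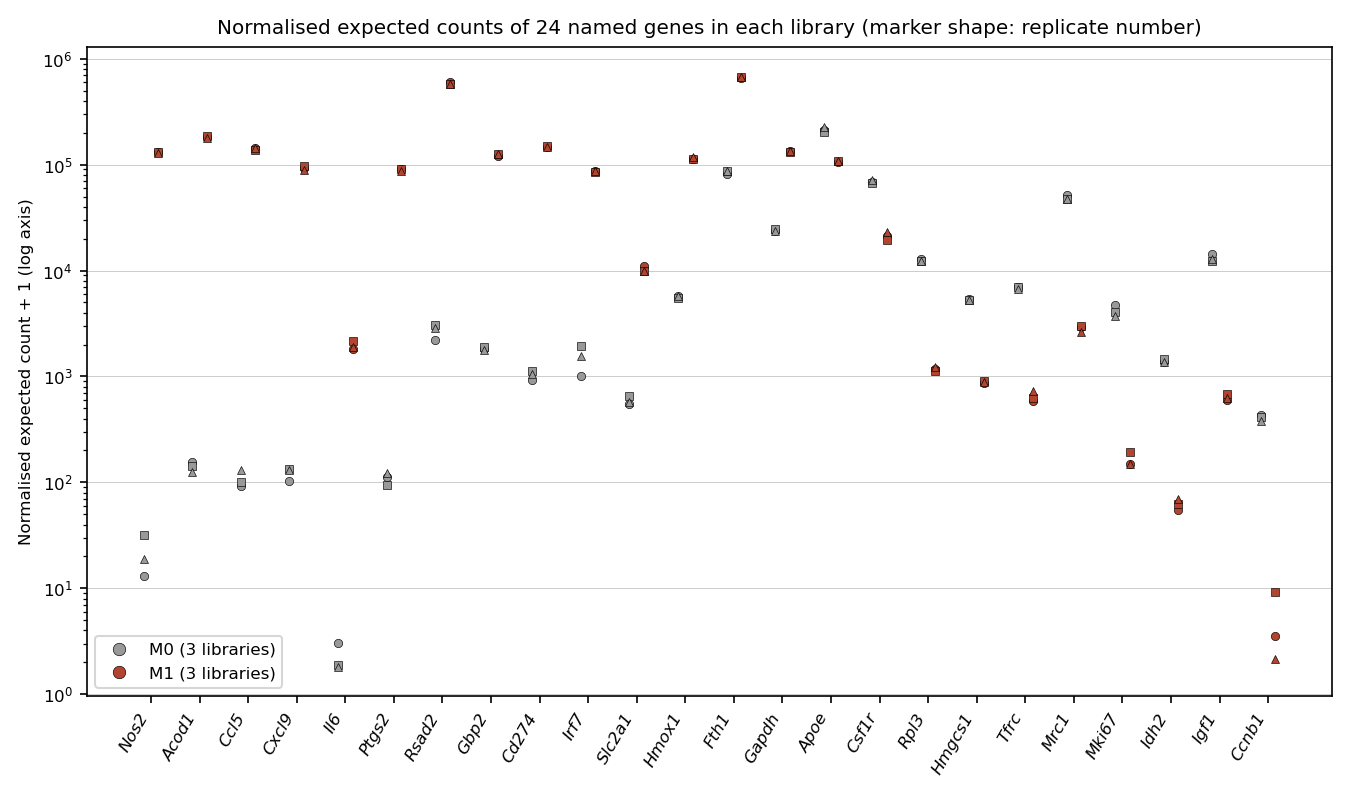
Normalised expected count plus 1 (log axis) of 24 named genes, with a grey point for each M0 library and a red point for each M1 library, and the marker shape giving the replicate number. The M1 points of Nos2 lie between 128162 and 132784 and its M0 points between 12.2 and 31.2, those of Ccnb1 run the other way, and in none of the 24 genes do the groups overlap, beside 87.1% of all genes tested without overlap.

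The IFN-γ receptor chains moved in opposite directions. In this list of receptor and JAK-STAT genes, 9 of the 16 members tested rose and 1 fell (6 and 1 with library totals alone), and the median log2 difference was 1.30. Ifngr1, the ligand-binding chain, had 5261, 4732 and 5061 in M0 and 1539, 1491 and 1680.5 in M1 and fell by 1.67 on the log2 scale. Ifngr2, the signalling chain, had 2886, 2718 and 2831 in M0 and 5985, 5600.4 and 5837 in M1 and rose by 1.05 ± 0.05, a rise that is not called with library totals alone, without the filter on low counts, or when all 9 macrophage libraries share a fit. The kinase gene Jak2 showed 1450.4, 1478 and 1521 in M0 and 10958, 11709 and 10872 in M1, a log2 difference of 2.91 ± 0.05. Stat2, which acts downstream of IFN-α and IFN-β, showed 2708, 3669 and 3331 in M0 and 47894, 46456 and 45729 in M1. Its M0 values were lowest in M0 replicate 1, and all M1 values lay above all M0 values, with a log2 difference of 3.85 ± 0.10.

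Among IRF genes, 5 of the 8 members tested rose and 1 fell (3 and 1 with library totals alone), and the median log2 difference was 1.601. Irf7, which amplifies type I interferon, had 1019, 1948 and 1546 in M0 and 87364, 85349 and 87175 in M1, a difference of 5.85 ± 0.19 (edgeR adjusted p = 2.53e-11). Irf1, an early target of IFN-γ, had 2007, 2168 and 2232 in M0 and 19998, 21649 and 21542 in M1, a difference of 3.30 ± 0.06. Irf4, which is induced by IL-4, had 298, 281 and 285 in M0 and 40.7, 69.4 and 65.2 in M1 and fell by 2.32 on the log2 scale. Irf8, needed for monocyte development, had overlapping values of 4595, 4926 and 5092 in M0 and 4961, 5264 and 5258 in M1.

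Feedback genes of cytokine signalling changed unevenly. In the SOCS list, 4 of the 12 members tested rose and 1 fell (3 and 3 with library totals alone), and the median log2 difference was 0.45. Socs1, which blocks JAK kinases, had 21, 27.7 and 22.2 in M0 and 1756, 1891 and 1905 in M1, and Socs3, which blocks signalling through the IL-6 receptor, had 312, 327 and 360.3 in M0 and 21579, 20606 and 19819 in M1. These are log2 differences of 6.30 ± 0.09 and 5.96 ± 0.07, whereas Socs6 fell by 1.49. Of the DUSP phosphatase and mRNA decay genes, 10 of 19 rose and 5 fell, or 8 and 6 with library totals alone (median 1.03). Dusp1, which switches off p38 and JNK, showed 228, 254 and 217 in M0 and 11969.6, 11588 and 10509.8 in M1, and Zfp36l1, an mRNA decay factor, showed 7717, 7390.4 and 7859.8 in M0 and 2875, 2948 and 2974 in M1.

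Receptors of LPS and other microbial products were not raised as a group. In the Toll-like receptor list 5 of the 18 members tested rose and 5 fell (5 and 7 with library totals alone), and the median log2 difference was 0.50, and together these genes took 0.312 to 0.319% of all expected counts in the M0 libraries and 0.308 to 0.316% in the M1 libraries, ranges that overlap. Cd14, the LPS co-receptor, had 3611, 3195 and 3782 in M0 and 16936, 15196 and 18169 in M1, and Tlr3, the receptor for double-stranded RNA, had 438, 418 and 444 in M0 and 4708, 5382 and 4561 in M1, with log2 differences of 2.25 ± 0.08 and 3.49 ± 0.07. Tlr2, the receptor for bacterial lipoproteins, had 2770.1, 2706 and 2910.2 in M0 and 827, 871 and 928 in M1 and fell by 1.67 on the log2 scale. Tlr4 itself, at 3259, 2740.3 and 2675 in M0 and 4280.5, 3944 and 4347 in M1, was not past 2-fold.

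Downstream of these receptors, Irak2, Irak3 and Myd88 rose and Peli2 fell. Of the adaptor and kinase list, 10 of 23 rose and 1 fell, or 8 and 5 with library totals alone (median 0.86). Irak3, an inhibitor of the pathway, had 768, 695 and 686 in M0 and 3839, 4278 and 4106 in M1. Peli2, a ubiquitin ligase, had 2012, 1689.8 and 1844 in M0 and 90.4, 122 and 108 in M1 and fell by 4.14 (log2), with exons that overlap Gm6498 on the same strand. Among sensors of nucleic acid and NOD receptors, 10 of 18 rose and 2 fell, or 7 and 4 with library totals alone (median 1.602). Ifih1, a sensor of double-stranded RNA, had 1410.4, 1909 and 1608 in M0 and 20332, 21039 and 20164 in M1, and Nlrp1b, an inflammasome sensor, had 1048, 874 and 944 in M0 and 95.5, 100 and 92.7 in M1.

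Subunits and inhibitors of NF-κB rose almost without exception. In this list 18 of the 19 members tested rose and 0 fell (12 and 0 with library totals alone), and the median log2 difference was 2.32, beside -0.09 for all genes tested, and 14 of 19 members were higher and 0 lower in M1 than in M2, a comparison in which 20.1% of 12934 genes tested were called higher and 27.9% lower in M1. The largest rises were of inhibitors. Tnip3 had 373, 307 and 329.9 in M0 and 6027, 6088 and 5410.0 in M1, Tnfaip3, which encodes the deubiquitinase A20, had 661, 644 and 724 in M0 and 10095, 9687 and 9703 in M1, and Nfkbia, which encodes IκBα, had 1174, 1218 and 1244 in M0 and 16195, 15214 and 15445 in M1. The log2 differences of these inhibitors were 4.11 ± 0.07, 3.86 ± 0.06 and 3.69 ± 0.05, whereas those of the subunits were smaller, at 1.93 ± 0.04 for Nfkb2, 1.61 ± 0.06 for Relb, 1.41 ± 0.05 for Rel, 1.33 ± 0.04 for Rela and 1.23 ± 0.04 for Nfkb1. Of the subunits, Nfkb2 kept its call with library totals alone and Relb, Rel, Rela and Nfkb1 did not. In the list of AP-1, ATF and EGR factors, 12 of 19 rose and 2 fell, or 9 and 2 with library totals alone (median 1.39). Atf3, a stress-induced repressor, had 1046, 1107 and 1137 in M0 and 20324, 18593 and 19084 in M1, and Batf2, an interferon-induced factor, had 62.3, 81.4 and 95.2 in M0 and 1970.3, 2163 and 1983 in M1. Jun, at 2154, 2202 and 2136 in M0 and 3435, 3124 and 3444 in M1, was not past 2-fold.

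Interferon target genes rose almost without exception. All 20 guanylate-binding proteins (GBPs) and immunity-related GTPases (IRGs) tested, which attack the vacuoles of intracellular microbes, were called higher, also with library totals alone. Their median log2 difference was 4.97 with a range of 2.57 to 9.30, and they took 0.128 to 0.157% of all expected counts in the M0 libraries and 2.17 to 2.33% in the M1 libraries. Gbp2 (chr3:142620602-142638008) had normalised counts of 1829, 1889.8 and 1773 in M0 and 121352, 126545 and 125746 in M1. Gbp5 had 1071, 1116 and 1164 in M0 and 53399.8, 58144 and 53556 in M1, and Iigp1 had 837, 1073 and 851 in M0 and 56555, 64267 and 61355 in M1. No M0 value came near an M1 value, and the log2 differences were 6.09 ± 0.06, 5.62 ± 0.06 and 6.05 ± 0.10 (edgeR adjusted p = 4.83e-15, 1.02e-14 and 9.77e-14). The largest in the list was that of Tgtp1, an IRG with 33.2, 50.2 and 33.6 in M0 and 22614, 25431 and 25193 in M1, whose exons overlap Gm12185. Members of these families are close in sequence, so reads may have been split between them. Of the 20 members, 18 were also higher in M1 than in M2.

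Antiviral interferon-stimulated genes rose too, with few exceptions. In this list 58 of the 61 members tested rose and 1 fell (56 and 1 with library totals alone), and the median log2 difference was 3.34. The summed share was 0.612 to 0.811% of all expected counts in the M0 libraries and 7.88 to 8.18% in the M1 libraries. Rsad2 (chr12:26442746-26456452), which encodes the antiviral enzyme viperin, had 2197, 3078 and 2846 in M0 and 601114, 573436 and 575842 in M1, a log2 difference of 7.75 ± 0.13 (edgeR adjusted p = 7.78e-14). Slfn4, a Schlafen family member, had the largest difference of the list, with 54.1, 67.6 and 58.3 in M0 and 73928, 79869 and 66781 in M1. Isg15, a ubiquitin-like modifier, had 270.0, 541 and 391 in M0 and 41069, 38434 and 38972 in M1, and Ifit1, which binds viral RNA, had 705, 1048 and 960.2 in M0 and 81651, 83766 and 79483 in M1. M0 replicate 1 was the lowest of the M0 libraries for Rsad2, Isg15 and Ifit1, and the groups did not overlap. Ifi27 was the exception with a fall, at 664, 589 and 679 in M0 and 91.6, 89.8 and 95 in M1.

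The promoters of these genes share short sequence elements, and the stretches below are shown because they carry them. Windows of 250 bases before to 50 bases after each annotated start were taken from RefSeq (GRCm38.p6), which had 27025 genes with a window and, of the list of GTPases, 11 members. Both strands were searched, and a match is a description of the letters, not of binding. The ISRE core, GAAANNGAA, was found in 10 of the 11 GTPase windows (90.9%), in 25 of 53 antiviral gene windows (47.2%) in 9.76% of all genes with a window and in 9.23% of the 9949 tested genes with one. The GAS, TTCNNNGAA, was found in 6 of the 11 GTPase windows (54.5%), in 9 of 53 antiviral windows (17.0%), in 9.55% of all and in 8.47% of tested genes. Matches of the ISRE core and the GAS overlapped each other in 51 genes of the whole table. Of genes called higher 13.9% held the ISRE core and of genes called lower 8.10%. For the GAS these shares were 9.72% and 8.61%, both close to the 8.47% of tested genes. Capitals mark the match, and each stretch lies upstream of the RefSeq start and is read on the strand of the gene. Gene positions in the text are GENCODE spans, whose ends differ from these starts, so that the stretch of Gbp2 lies partly and that of Gbp5 wholly inside the gene's span.
Gbp2 (chr3:142620579-142620638, plus strand), ISRE core: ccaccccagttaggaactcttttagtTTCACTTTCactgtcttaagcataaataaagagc
Isg15 (chr4:156200851-156200910, minus strand), ISRE core: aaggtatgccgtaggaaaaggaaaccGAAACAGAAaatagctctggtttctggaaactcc
Ifit1 (chr19:34640779-34640838, plus strand), ISRE core: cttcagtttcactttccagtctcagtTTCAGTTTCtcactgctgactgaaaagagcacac
Cxcl10 (chr5:92349069-92349128, minus strand), ISRE core: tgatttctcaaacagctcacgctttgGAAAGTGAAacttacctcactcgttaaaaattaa
Irf1 (chr11:53769898-53769957, plus strand), GAS: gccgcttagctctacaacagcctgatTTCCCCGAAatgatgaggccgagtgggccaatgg
Gbp5 (chr3:142496856-142496915, plus strand), GAS: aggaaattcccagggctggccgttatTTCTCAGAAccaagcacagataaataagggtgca

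**Figure D3:**
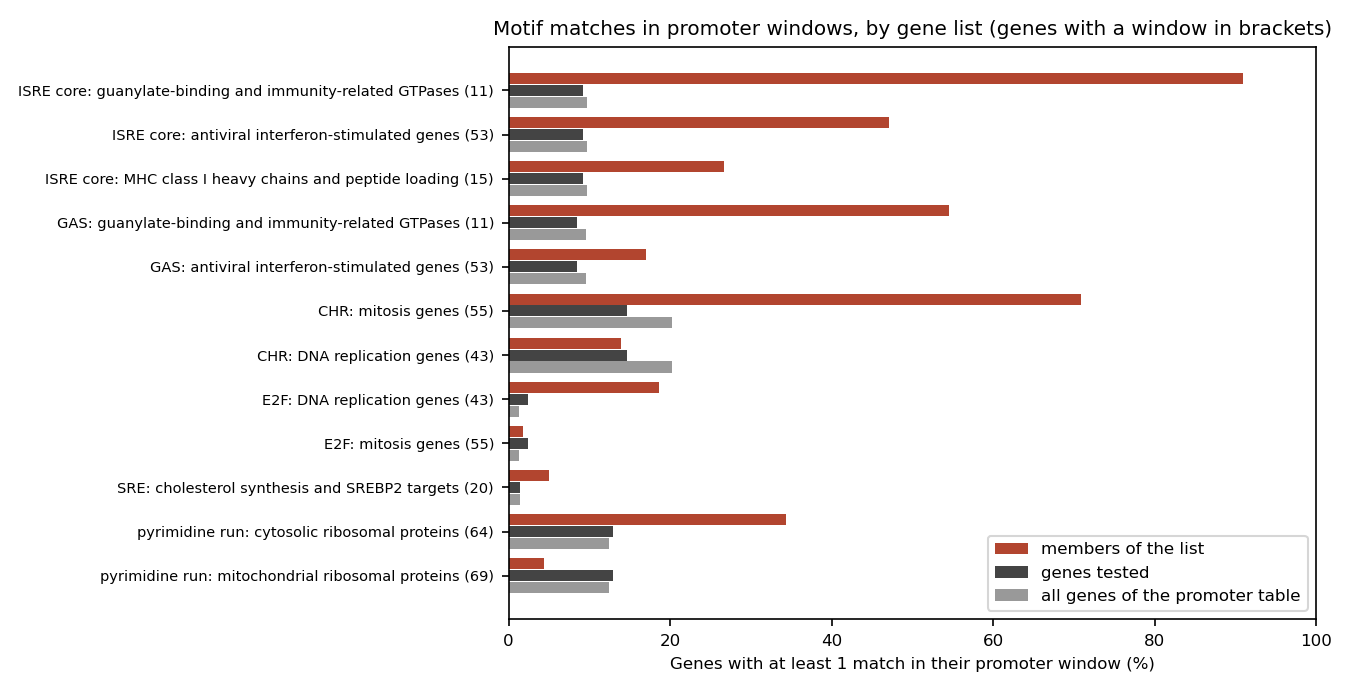
Percent of genes with at least 1 motif match in their promoter window, for the members of a list (red), for the genes tested (dark grey) and for all genes of the promoter table (light grey), with the number of members that have a window in brackets. The ISRE core reaches 90.9% in the GTPase list against 9.23% of genes tested and 9.76% of all genes, and the CHR reaches 70.9% in the mitosis list against 14.7% and 20.2%.

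Genes of the MHC class I path rose together, while those of class II did not. Class I molecules show peptides from inside the cell to CD8 T cells. In that list 14 of the 18 members tested rose and 0 fell (14 and 1 with library totals alone), and the median log2 difference was 2.98. H2-K1, a classical heavy chain, had 16918, 17228 and 17498 in M0 and 118912, 115987 and 121648 in M1, B2m, the shared light chain, had 34797, 35878 and 37736 in M0 and 211483, 233065 and 208301 in M1, and Tap1, a subunit of the peptide transporter, had 1508, 1835 and 1699 in M0 and 21733, 19913 and 21760.2 in M1. Their log2 differences were 2.79 ± 0.05, 2.59 ± 0.06 and 3.65 ± 0.07. The non-classical chain H2-Q6 had the largest, at 7.48 ± 0.08 with counts of 125, 140.3 and 149 in M0 and 23965, 25799 and 23712 in M1, and its reads may have been divided with near-identical H2 genes. Nlrc5, the transactivator of class I genes, had 1064, 1401 and 1155 in M0 and 13514, 14051 and 13884 in M1.

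In the class II list, whose molecules show peptides to CD4 T cells, 3 of the 17 members tested rose and 1 fell (0 and 6 with library totals alone), and the median log2 difference was 0.46. H2-Ab1 had 1627, 1858 and 1970.5 in M0 and 2481, 2619.7 and 2861 in M1 and H2-Eb1 had 1446, 1629 and 1721 in M0 and 792, 789.6 and 924 in M1, both short of 2-fold. Ciita, the transactivator of class II genes, had 280.2, 324 and 305 in M0 and 29.3, 51 and 36.6 in M1 and fell by 3.01 on the log2 scale (edgeR adjusted p = 1.91e-09). With RLE scaling 5 members rose and 1 fell, and with library totals alone 0 rose and 6 fell. The balance of calls thus depends on the scaling. With library totals alone 10.7% of all genes tested rose and 45.5% fell. The list's median log2 difference was then -0.32, beside -0.86 for all genes tested. Its summed share was 0.257 to 0.275% of all expected counts in the M0 libraries and 0.321 to 0.345% in the M1 libraries. The March1 ligase, which removes class II from the surface, and the protease Ctss rose with TMM scaling, by 1.33 ± 0.06 and 1.43 ± 0.06, and not with library totals alone.

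The inducible proteasome subunits rose, and so did some of the constitutive ones. Among the immunoproteasome and PA28 genes, 5 of the 6 members tested rose and 0 fell (5 and 0 with library totals alone), and the median log2 difference was 2.27. Psmb9 had 603, 669 and 677 in M0 and 3289, 3139.9 and 3352 in M1, Psmb8 had 1444, 1634 and 1609 in M0 and 7543, 7484 and 7374 in M1, and Psmb10 had 793, 852 and 859 in M0 and 3194, 3077 and 3174 in M1, differences of 2.33 ± 0.05, 2.26 ± 0.05 and 1.92 ± 0.05. Against M2, 1 of the 6 (Psmb9) was higher in M1. In the list of constitutive 20S and 19S subunits, 11 of the 32 members tested rose and 0 fell (0 and 0 with library totals alone), and the median log2 difference was 0.89, with 0 of 32 called between M1 and M2. The calls in that list thus rest on TMM or RLE scaling, and its share was 0.237 to 0.244% of all expected counts in the M0 libraries and 0.262 to 0.265% in the M1 libraries.

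Ligands that T cells read were raised. Among costimulatory and checkpoint genes, 20 of the 28 members tested rose and 3 fell (16 and 5 with library totals alone), and the median log2 difference was 2.24. Cd274, which encodes the inhibitory ligand PD-L1, had 918, 1133 and 1045 in M0 and 145199, 151240 and 145895 in M1, a log2 difference of 7.16 ± 0.09 (edgeR adjusted p = 1.27e-14). Cd86, the main CD28 ligand, had 893, 903 and 976 in M0 and 10515, 10911 and 10477 in M1, and Cd40, the receptor for CD40 ligand, had 177, 171 and 212 in M0 and 6755, 6955 and 6653 in M1. The M1 libraries were above the M0 libraries in each. Cd80 rose by less, 1.68 ± 0.07, and lost its call with library totals alone. Vsir, an inhibitory receptor, had 13579, 13017 and 13642 in M0 and 5203, 4631 and 5056 in M1 and fell by 1.43, whereas with limma on normalised TPM it was short of 2-fold (-0.96).

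Cytokine genes rose, some of them from counts near 0 in M0. In the IL-6, IL-10 and IL-12 family, 8 of 16 members had enough counts to be tested. All 8 rose, 6 of them with library totals alone, with a median log2 difference of 3.77, and all 8 were also higher than in M2. A member near 0 in M0, such as Il6, could pass the filter only through M1 and so could only be called higher. Il6, the acute-phase cytokine, had 2.03, 0.866 and 0.821 in M0 and 1829, 2146 and 1916 in M1, at least 756-fold higher in M1 when M0 is set to a floor of 3 counts in its smallest library. Il12b, the shared chain of IL-12 and IL-23, had 14.2, 13.9 and 14 in M0 and 879.5, 877 and 833 in M1, and Il27, of the same family, had 10.8, 9.53 and 12.3 in M0 and 981, 1022 and 812 in M1. The anti-inflammatory Il10 rose too, with 60.9, 52 and 51.7 in M0 and 1012, 1059 and 951 in M1, a difference of 4.18 ± 0.09.

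In the IL-1 family, 7 of the 14 members tested rose and 1 fell (6 and 3 with library totals alone), and the median log2 difference was 1.02. Il1b and Il1a, the fever-inducing cytokines, had 230.1, 172 and 216 in M0 and 15606, 15795 and 16413 in M1 for Il1b and 41.3, 44.2 and 48.4 in M0 and 4098, 4946 and 4645 in M1 for Il1a. Il1rn, the secreted antagonist of their receptor, had 1189, 1495 and 1228 in M0 and 160659, 175808 and 144911 in M1. The log2 differences were 6.26 ± 0.09, 6.68 ± 0.10 and 6.94 ± 0.11. In this list the groups did not overlap for 9 of 14 genes, against 87.1% of all genes. Il18 and its soluble inhibitor Il18bp showed differences of 1.91 ± 0.07 and 4.77 ± 0.07.

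Of the TNF ligands, 7 of 13 rose and 3 fell, or 6 and 3 with library totals alone (median 1.19), and of the TNF receptors, 11 of 22 rose and 5 fell, or 8 and 7 with library totals alone (median 1.22). Tnf had 269, 212 and 256 in M0 and 5781, 6155 and 5716 in M1, and Tnfsf10, the death ligand TRAIL, had 179, 230.4 and 223 in M0 and 5283, 5821 and 5573 in M1. Tnfsf13, the B cell factor APRIL, had 308, 277 and 333 in M0 and 31.8, 22.4 and 34.3 in M1 and fell by 3.32, with exons that overlap Tnfsfm13 on the same strand. The death receptor gene Fas had 171, 161 and 163 in M0 and 956, 1120.1 and 1049.7 in M1, a difference of 2.65 ± 0.08.

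Growth factors moved in both directions. Of interferons, colony-stimulating and other growth factors, 12 of 28 rose and 8 fell, or 7 and 12 with library totals alone (median 0.15). Csf3, the neutrophil growth factor G-CSF, had 0, 0 and 0 in M0 and 181, 165 and 143 in M1, at least 62.7-fold higher. Il15, which sustains NK and memory T cells, had 378, 392 and 363 in M0 and 5051, 5141 and 4948 in M1. Igf1, a growth factor of tissue repair, had 14251, 12236 and 12899 in M0 and 603, 677 and 627 in M1, and Il16, a chemoattractant of CD4 T cells, had 1602, 1484 and 1536 in M0 and 106, 81.6 and 88.1 in M1. The log2 differences of Igf1 and Il16 were -4.37 ± 0.07 and -4.05 ± 0.08, and Igf1 was also lower in M1 than in M2, with a difference of -5.42.

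Cytokine receptors rose in part. Of that list, 19 of 38 rose and 7 fell, or 9 and 12 with library totals alone (median 0.90). Rises thus outnumber falls with TMM and not with library totals. Under library totals 10.7% of all genes tested rose and 45.5% fell, and the list's median was 0.13, beside -0.86 for all genes. The summed share of the list was 0.752 to 0.791% of all expected counts in the M0 libraries and 0.515 to 0.532% in the M1 libraries. Il23r had 0, 0 and 0 in M0 and 538, 599.8 and 554 in M1, at least 217-fold higher. Il15ra, which presents IL-15 to other cells, had 146, 142 and 131 in M0 and 4065, 4517 and 3906 in M1, and Il4ra, the receptor of IL-4, had 4753, 4944 and 5014 in M0 and 35015, 31568 and 31021 in M1. Csf1r, the receptor of the macrophage growth factor, had 68749, 66597 and 72302 in M0 and 21215, 19627 and 23130.4 in M1 and fell by 1.70 on the log2 scale (edgeR adjusted p = 9.65e-11). Lifr fell by 3.19 and Tgfbr1 fell by 1.81. Il6ra fell by 1.014, and its call was lost with RLE scaling (-0.958), with DESeq2, with limma, and when M0 replicate 1 (-1.002), M0 replicate 3 (-0.971), M1 replicate 1 (-0.983) or M1 replicate 3 (-0.998) was left out.

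Chemokine genes took a larger share of counts in M1 than in M0. The CC chemokine list took 0.0707 to 0.074% of all expected counts in the M0 libraries and 0.724 to 0.749% in the M1 libraries, and 9 of the 13 members tested rose and 2 fell (8 and 2 with library totals alone), and the median log2 difference was 4.41. Ccl5 (chr11:83525778-83530518), which attracts T cells and monocytes, had 92, 98.7 and 129.7 in M0 and 144884, 136852 and 142153 in M1, a log2 difference of 10.38 ± 0.11 (edgeR adjusted p = 6.31e-15). Ccl2 and Ccl7, ligands of the monocyte receptor CCR2, had 374, 429.6 and 395 in M0 and 26434, 26841 and 27045 in M1 for Ccl2 and 175, 204 and 181 in M0 and 23938, 23787 and 21767 in M1 for Ccl7. The groups did not overlap for these genes. Ccl22, often linked to IL-4 treated macrophages, also rose, by 4.41 ± 0.15, and was not called against M2. Ccl6 had 7636, 6944 and 7149 in M0 and 901, 996 and 990.2 in M1 and fell by 2.91, while the values of Ccl24 overlapped.

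Of CXC and related chemokines, 7 of 12 rose and 3 fell, or 7 and 4 with library totals alone (median 1.91). Cxcl9 and Cxcl10, the CXCR3 ligands that attract activated T cells, had 103, 132 and 129 in M0 and 92381, 96521 and 89742 in M1 for Cxcl9 and 295, 429.6 and 504 in M0 and 94272, 97706 and 88836 in M1 for Cxcl10. Cxcl3, a neutrophil chemoattractant, had 0, 1.73 and 2.46 in M0 and 608, 612 and 699 in M1, at least 246-fold higher. Cxcl12, the ligand of CXCR4 made by stromal cells, had 2629, 4416 and 2847 in M0 and 642, 518 and 574 in M1 and fell by 2.497. Cxcl12 is itself among the stromal markers summed above.

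Chemokine receptors moved in both directions. In that list 9 of the 15 members tested rose and 5 fell (7 and 6 with library totals alone), and the median log2 difference was 1.16. Ccr7, which guides cells to lymph nodes, had 21.7, 20.8 and 23 in M0 and 905, 1043 and 976 in M1, and Ccrl2, a receptor for the chemerin ligand, had 174, 201 and 202 in M0 and 7480.4, 7783 and 7191 in M1. Receptors of monocytes and resident macrophages were lower. Ccr2 had 1751, 1841 and 1789.9 in M0 and 185, 229 and 195 in M1, Cxcr4 had 1680.5, 2060.4 and 2092 in M0 and 193, 161 and 185 in M1, and Cx3cr1 had 742, 867 and 975 in M0 and 45.8, 36.7 and 34.3 in M1. The log2 differences were -3.17 ± 0.07, -3.41 ± 0.11 and -4.46 ± 0.15. In the direct comparison with M2, Ccr2 was called lower in M1 and Cx3cr1 and Cxcr4 were not called.

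Genes for killing microbes were raised beyond Nos2 and Acod1. In the list of radical genes, 11 of the 16 members tested rose and 2 fell (8 and 2 with library totals alone), and the median log2 difference was 1.93, with 0.316 to 0.328% of all expected counts in the M0 libraries and 1.5 to 1.53% in the M1 libraries. Gch1, which makes the cofactor of nitric oxide synthase, had 173, 159 and 149 in M0 and 1434, 1409.8 and 1466 in M1, and Lcn2, which captures bacterial siderophores, had 230.1, 222 and 239.6 in M0 and 7843, 9397 and 7983 in M1. Cybb, the catalytic subunit of the NADPH oxidase, rose by 1.14 ± 0.05 with TMM and was short of 2-fold with library totals alone.

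Arginine, the substrate of nitric oxide synthase, is imported, rebuilt and broken down by the products of genes that moved both ways. In this list 7 of the 22 members tested rose and 6 fell (6 and 9 with library totals alone), and the median log2 difference was 0.19. Slc7a2, the arginine importer, had 231, 216 and 214 in M0 and 16217, 18948 and 18206 in M1, and Ass1, which rebuilds arginine from citrulline, had 88, 114 and 93.6 in M0 and 1711, 1919.8 and 1887 in M1. Arg1, the arginase commonly used as a mark of IL-4 treated macrophages, was at 4.06, 0 and 4.1 in M0 and 6477, 6123 and 6673 in M1, a log2 difference of 11.07 ± 0.15, and was not called between M1 and M2 (-0.81). Enzymes of polyamine turnover were lower in part, with Srm, the spermidine synthase, at 286, 310.1 and 299.6 in M0 and 22.9, 18.4 and 30.9 in M1. In the kynurenine and NAD list, 7 of 15 rose and 4 fell, or 5 and 4 with library totals alone (median 0.68). Cd38, which consumes NAD, had 302, 438 and 329.9 in M0 and 6319.5, 7057 and 7094 in M1, Nampt, which rebuilds it, had 3366, 3557 and 3316 in M0 and 18210.2, 19394 and 18869 in M1, and Kmo, a kynurenine enzyme, had 255, 299.7 and 332 in M0 and 11.5, 18.4 and 17.2 in M1.

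Inflammasome genes included large rises and some falls. Of that list, 9 of 18 rose and 4 fell, or 5 and 6 with library totals alone (median 1.003). Casp4, the mouse sensor of cytosolic LPS, had 430.4, 417 and 398 in M0 and 8421, 8840.3 and 7962 in M1, Casp1, which matures IL-1β, had 1347, 1192 and 1234 in M0 and 13974, 14894 and 13599 in M1, and Gsdmd, the pore former, had 881, 851 and 901 in M0 and 4807, 4578 and 4770.1 in M1. The adaptor gene Pycard had 904, 867 and 947 in M0 and 246, 241 and 289.6 in M1 and fell by 1.79. In the apoptosis and necroptosis list, 18 of 36 rose and 4 fell, or 14 and 6 with library totals alone (median 1.0711). Mlkl, the effector of necroptosis, had 329.6, 381 and 314 in M0 and 5495, 6051 and 5350.5 in M1, and Cflar, an inhibitor of caspase 8, had 4308, 3955 and 4358 in M0 and 38239, 39756 and 37793 in M1. Bmf, which promotes apoptosis, had 751, 829 and 921 in M0 and 66.2, 55.1 and 80.1 in M1.

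Glycolysis genes rose while those of mitochondrial fuel use did not. In the glycolysis list 18 of the 29 members tested rose and 4 fell (15 and 7 with library totals alone), and the median log2 difference was 1.94, and its share of counts was 0.52 to 0.543% of all expected counts in the M0 libraries and 1.82 to 1.93% in the M1 libraries. Slc2a1, the glucose transporter GLUT1, had 547, 655 and 571 in M0 and 11021, 9811 and 9968 in M1, Pfkfb3, which makes the activator of phosphofructokinase, had 1085, 1239 and 1288 in M0 and 33539, 34579.8 and 32745 in M1, and Slc16a3, which exports lactate, had 563, 716 and 631 in M0 and 17286, 14641 and 15904 in M1. These are log2 differences of 4.12 ± 0.07, 4.80 ± 0.07 and 4.65 ± 0.09. Among enzymes, Hk3 had a difference of 3.31 ± 0.05, Gapdh of 2.48 ± 0.05 and Ldha of 2.09 ± 0.06. Pfkm and Pfkfb2 fell. Of these genes, 15 were higher and 4 lower in M1 than in M2.

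In the pyruvate dehydrogenase and tricarboxylic acid cycle list, 1 of the 41 members tested rose and 12 fell (1 and 21 with library totals alone), and the median log2 difference was -0.24; 12 of 41 is close to the 26% of all genes that fell. Among the members that fell were the isocitrate dehydrogenase genes Idh1, Idh2 and Idh3a. Idh2 had 1371, 1474 and 1375 in M0 and 53.5, 61.2 and 68.7 in M1, Idh1 had 6897, 5855 and 6114 in M0 and 1235, 1098 and 1156 in M1, and Idh3a had 451, 499.7 and 509 in M0 and 108, 122 and 127 in M1, with log2 differences of -4.52 ± 0.09, -2.43 ± 0.07 and -2.03 ± 0.10. Cs, the citrate synthase, had overlapping values of 2918, 2953 and 2836 in M0 and 2940.2, 2729.8 and 2762 in M1, and Sdha was short of 2-fold. Pdk4, which inhibits pyruvate dehydrogenase, had 435, 547 and 520.3 in M0 and 31.8, 24.5 and 18.3 in M1.

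Nuclear genes of the respiratory chain moved little with TMM scaling. Of complex I subunits 0 of 36 rose and 4 fell, or 0 and 21 with library totals alone (median -0.36), of complex II, III and IV subunits 2 of 27 rose and 1 fell, or 2 and 7 with library totals alone (median 0.12), and of ATP synthase subunits 0 of 16 rose and 3 fell, or 0 and 9 with library totals alone (median -0.41). The shares that were called lie below the background with TMM and above it for complex I and ATP synthase with library totals alone. Ndufs8, a complex I subunit, had 445, 488 and 471 in M0 and 129, 106 and 127 in M1, and Cycs, which encodes cytochrome c, rose by 1.82 ± 0.07. Mitochondrially encoded protein genes, a group formed after their values were seen, fell in 12 of 13 cases with a median of -1.87, and mt-Co1 was short of 2-fold. Mitochondrial ribosomal protein genes gave 1 of 78 rose and 12 fell, or 0 and 44 with library totals alone (median -0.37).

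Of the fatty acid oxidation list, 3 of 31 rose and 13 fell, or 2 and 21 with library totals alone (median -0.92). Hadh and Decr1, enzymes of the path, had 696, 624 and 721 in M0 and 89.1, 97.9 and 92.7 in M1 for Hadh and 487, 487 and 462 in M0 and 81.5, 61.2 and 83.6 in M1 for Decr1. Pparg, a regulator of lipid genes, fell by 1.81. Cpt1a and Hadha were short of 2-fold, and Plin2, which coats lipid droplets, rose, with 4651, 4706 and 4672 in M0 and 26489.9, 26366 and 26778 in M1.

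Genes that respond to low oxygen and to oxidants rose in most cases. In the hypoxia list 16 of the 22 members tested rose and 1 fell (12 and 1 with library totals alone), and the median log2 difference was 1.90. Hif1a had 3466, 3586 and 3557 in M0 and 13362, 13596 and 13074 in M1, and its target Egln3 had 54.8, 85.7 and 50.1 in M0 and 1017, 941 and 1158 in M1, whereas Epas1, which encodes HIF-2α, had 731, 1099 and 722 in M0 and 136, 87.7 and 129 in M1 and fell by 2.80. Bnip3, a mitophagy receptor, had 661, 667 and 620.4 in M0 and 10000.5, 9371 and 9642 in M1. In the NRF2 and antioxidant list, 17 of the 32 members tested rose and 2 fell (15 and 8 with library totals alone), and the median log2 difference was 1.39. Hmox1, which degrades heme, had 5803, 5459.9 and 5797 in M0 and 111827, 112992 and 118823 in M1, Prdx1 had 11077, 10455 and 11044 in M0 and 175869, 179012 and 189066 in M1, and Slc7a11, the cystine importer, had 92, 110.0 and 135 in M0 and 6765, 7343 and 7698 in M1. Their log2 differences were 4.33 ± 0.06, 4.06 ± 0.06 and 6.03 ± 0.10. Nfe2l2, which encodes NRF2 itself, was at 8238, 7811 and 7822 in M0 and 4569, 5013 and 5032 in M1. Its fall was short of 2-fold with TMM and was called with library totals alone.

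Iron genes moved both ways. In that list 11 of the 23 members tested rose and 9 fell (8 and 10 with library totals alone), and the median log2 difference was 0.52. Fth1 (chr19:9980598-9985098), the ferritin heavy chain, had 82161, 86192 and 86517 in M0 and 659017, 671063 and 679133 in M1, a log2 difference of 2.98 ± 0.05 (edgeR adjusted p = 1.01e-13), and Ftl1, the light chain, was short of 2-fold at 0.52 ± 0.05. Tfrc, the transferrin receptor, had 6969, 7010.2 and 6671 in M0 and 589, 628 and 723 in M1, Trf, transferrin, had 23875, 21929 and 25310.2 in M0 and 2038, 1926 and 2311 in M1, and Slc40a1, the iron exporter ferroportin, had 21135, 18227 and 19162 in M0 and 6316, 5780.0 and 7052 in M1. Their log2 differences were -3.40 ± 0.07, -3.50 ± 0.08 and -1.61 ± 0.08. Slc40a1 was higher in M1 than in M2 by 1.72, and Tfrc was lower, with a difference of -5.205.

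Most cholesterol synthesis genes fell. In this list of SREBP2 targets, 1 of the 28 members tested rose and 22 fell (0 and 26 with library totals alone), and the median log2 difference was -2.48 (-2.17 when genes near 0 are set to their bound). The share of counts was 0.261 to 0.266% of all expected counts in the M0 libraries and 0.0435 to 0.048% in the M1 libraries. Hmgcs1, which begins the path, had 5355, 5236 and 5284 in M0 and 863, 896 and 877 in M1 and fell by 2.59 (edgeR adjusted p = 9.78e-14). Idi1, which acts on isoprenoid precursors, had 2823, 2648 and 2669.7 in M0 and 129, 124 and 119 in M1, and Sqle, the squalene epoxidase, had 1812, 1832 and 1799 in M0 and 237, 179.5 and 214 in M1. For each gene the M0 values lay close together and did not overlap the M1 values. Srebf2, the gene of the factor, fell by 2.38. The sterol regulatory element, TCACNCCAC, was found in 1 of 20 windows of the list (5%) in 1.44% of all genes and in 1.37% of tested genes, and is shown for that member.
Hmgcs1 (chr13:119690188-119690247, plus strand), sterol element in capitals: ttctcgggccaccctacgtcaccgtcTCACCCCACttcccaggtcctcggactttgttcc

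Fatty acid synthesis genes fell in part. In that list 1 of the 16 members tested rose and 9 fell (1 and 10 with library totals alone), and the median log2 difference was -1.51. Fasn, the synthase, had 2883, 3442 and 3041 in M0 and 153, 129 and 165 in M1, Acaca, which supplies it, had 1272, 1429.9 and 1322 in M0 and 221, 204 and 235 in M1, and Scd1, the desaturase, had 592, 775 and 685 in M0 and 62.4, 42.8 and 56.1 in M1. Elovl6 fell the most, with 386, 420.1 and 350.4 in M0 and 6.36, 14.3 and 4.58 in M1. Srebf1 had overlapping values of 933, 1029.8 and 937 in M0 and 1016, 875 and 989 in M1.

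Cholesterol export and LXR targets were mixed. Of that list, 8 of 26 rose and 10 fell, or 6 and 14 with library totals alone (median -0.68). Abcg1, an exporter, and Nr1h3, which encodes LXRα, had 539, 721 and 569.6 in M0 and 8057, 7065 and 7568 in M1 for Abcg1 and 143, 217 and 181 in M0 and 2163, 2328 and 2179.6 in M1 for Nr1h3, while the values of Abca1 overlapped. Cyp27a1, which makes an oxysterol, had 1664, 1589 and 1753 in M0 and 15.3, 18.4 and 19.5 in M1, and Lpl, the lipoprotein lipase, had 11461, 10369 and 11608 in M0 and 2283, 1942 and 2914 in M1. Apoe, the most abundant mRNA of M0 per length, fell by 1.002 on the log2 scale, at the threshold. Its call was lost with RLE scaling and DESeq2 (-0.946 in both) and without M0 replicate 1 (-0.987), M0 replicate 3 (-0.957), M1 replicate 1 (-0.990) or M1 replicate 3 (-0.999).

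The cyclooxygenase genes moved in opposite directions. Of the prostaglandin and leukotriene list, 11 of 29 rose and 9 fell, or 10 and 13 with library totals alone (median 0.03). Against the rise of Ptgs2, Ptgs1, the constitutive cyclooxygenase, had 3007, 2823 and 3119 in M0 and 85.3, 63.2 and 91.6 in M1 and fell by 5.17. Ptges, the inducible PGE2 synthase, had 63.6, 67.6 and 59.1 in M0 and 5914, 6633 and 6622 in M1, and Hpgd, which inactivates PGE2, had 2055, 1433 and 1962 in M0 and 3.82, 8.16 and 5.72 in M1. Alox5 and Ltc4s, of leukotriene synthesis, fell by 3.18 and by 5.29.

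Genes of mitosis were the list with the lowest median of all 65. In it 2 of the 70 members tested rose and 62 fell (1 and 65 with library totals alone), and the median log2 difference was -3.44, or -3.30 with genes near 0 set to their bound, and 2 of 70 members were higher and 62 lower in M1 than in M2. The list took 0.208 to 0.238% of all expected counts in the M0 libraries and 0.0432 to 0.0454% in the M1 libraries. Mki67, the proliferation marker Ki-67, had 4771, 4081 and 3738 in M0 and 148, 194 and 148 in M1 and fell by 4.72 (edgeR adjusted p = 1.97e-12). Ccnb1 and Ccna2, the mitotic and S-phase cyclins, had 428, 409 and 377 in M0 and 2.55, 8.16 and 1.14 in M1 for Ccnb1 and 783, 734 and 671 in M0 and 6.36, 0 and 2.29 in M1 for Ccna2. The M1 values of both cyclins were near 0 in every library. Log2 differences were -2.66 ± 0.11 for the kinase Cdk1, -3.84 ± 0.15 for the kinase Plk1 and -5.32 ± 0.10 for the topoisomerase Top2a. Pttg1, which encodes securin, and Tpx2, a spindle factor, were the 2 members that rose, with 259.9, 305 and 272 in M0 and 1611, 1797 and 1519 in M1 for Pttg1 and 754, 766 and 654 in M0 and 1664, 1804 and 1481 in M1 for Tpx2, the latter not with library totals alone.

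DNA replication genes fell less uniformly. In that list 4 of the 53 members tested rose and 26 fell (1 and 37 with library totals alone), and the median log2 difference was -1.001. Mcm2, of the replicative helicase, had 429, 538 and 439.9 in M0 and 22.9, 18.4 and 29.8 in M1, and Rrm2, which makes deoxynucleotides, had 456, 483 and 423 in M0 and 5.09, 10.2 and 6.87 in M1, with log2 differences of -4.24 ± 0.17 and -5.996 ± 0.17. Pcna, the sliding clamp, rose, with 2139, 2271 and 2253 in M0 and 6295, 5845 and 6017 in M1, and was short of 2-fold with library totals alone. Of homologous recombination and Fanconi genes, 3 of 38 rose and 19 fell, or 1 and 27 with library totals alone (median -1.03). Brca1 had overlapping values of 194, 178 and 155 in M0 and 162, 149 and 148 in M1 and Fanca rose by 2.79 ± 0.09.

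Promoters of mitosis genes share the cell cycle homology region (CHR), TTTGAA, which was found in 39 of 55 mitosis windows (70.9%), in 6 of 43 replication windows (14%), in 20.2% of all genes and in 14.7% of tested genes. The E2F site, TTTCCCGC, was found in 8 of 43 replication windows (18.6%), in 1 of 55 mitosis windows (1.82%), in 1.24% of all genes and in 2.34% of tested genes. Over all windows, 132 genes hold a CHR match that overlaps a GAS match and 50 a CHR match that overlaps an ISRE core. Stretches upstream of the RefSeq start are shown for members of both lists, with the match in capitals, and all of these lie partly or wholly inside the span that GENCODE gives the gene.
Cdk1 (chr10:69352913-69352972, minus strand), CHR: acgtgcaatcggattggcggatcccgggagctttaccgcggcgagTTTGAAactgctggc
Cdc20 (chr4:118437344-118437403, minus strand), CHR: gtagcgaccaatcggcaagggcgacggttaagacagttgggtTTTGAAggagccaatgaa
Cdc6 (chr11:98907987-98908046, plus strand), E2F site: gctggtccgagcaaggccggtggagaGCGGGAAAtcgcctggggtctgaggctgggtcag

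Regulators of the cycle moved both ways. Of cyclins, CDKs, inhibitors, E2F and MYC genes, 17 of 46 rose and 12 fell, or 13 and 16 with library totals alone (median 0.24). Cdkn1a, the inhibitor p21, had 2764, 2994 and 2911 in M0 and 24264, 24956 and 23599 in M1, and Mxd1, which opposes MYC, had 876, 879 and 942 in M0 and 39886, 38301 and 37185 in M1. Cyclin D2 rose by 2.16 ± 0.08, Myc was short of 2-fold, and Mxd4 fell by 3.38.

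Cytosolic ribosomal protein genes fell together. Of 82 tested, 0 rose and 74 fell (0 and 80 with library totals alone), with a median log2 difference of -2.10, and 76 were lower in M1 than in M2. These genes took 2.62 to 2.7% of all expected counts in the M0 libraries and 0.445 to 0.494% in the M1 libraries. Rpl3 (chr15:80077791-80091868) had 12774, 12406 and 12246 in M0 and 1179, 1134 and 1237 in M1, and Rpl10a (chr17:28328471-28331033) had 3894, 4332 and 4153 in M0 and 311, 377 and 308 in M1, with log2 differences of -3.39 ± 0.05 and -3.66 ± 0.07 (edgeR adjusted p = 4.4e-14 and 3.4e-13). The groups did not overlap for any of the 82, against 87.1% of all genes without overlap. Rps24 was the member farthest from the rest, with a difference of 0.59 ± 0.06 that is short of 2-fold, and Rpl7l1, at 0.08 ± 0.05, encodes a ribosomal protein-like factor; both were singled out after their values were seen. These mRNAs are short, with a median annotated length of 704 bases and a wide range of 367.5 to 3706 bases. The median log2 difference of the 9823 other genes in that range was -0.08. For genes of 500 to 1000 bases the medians were -0.10 for other genes and -2.05 for ribosomal protein genes. The part of transcript length in the fall was not tested. Many of these genes have processed pseudogenes, so that reads may have been divided among copies.

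**Figure D4:**
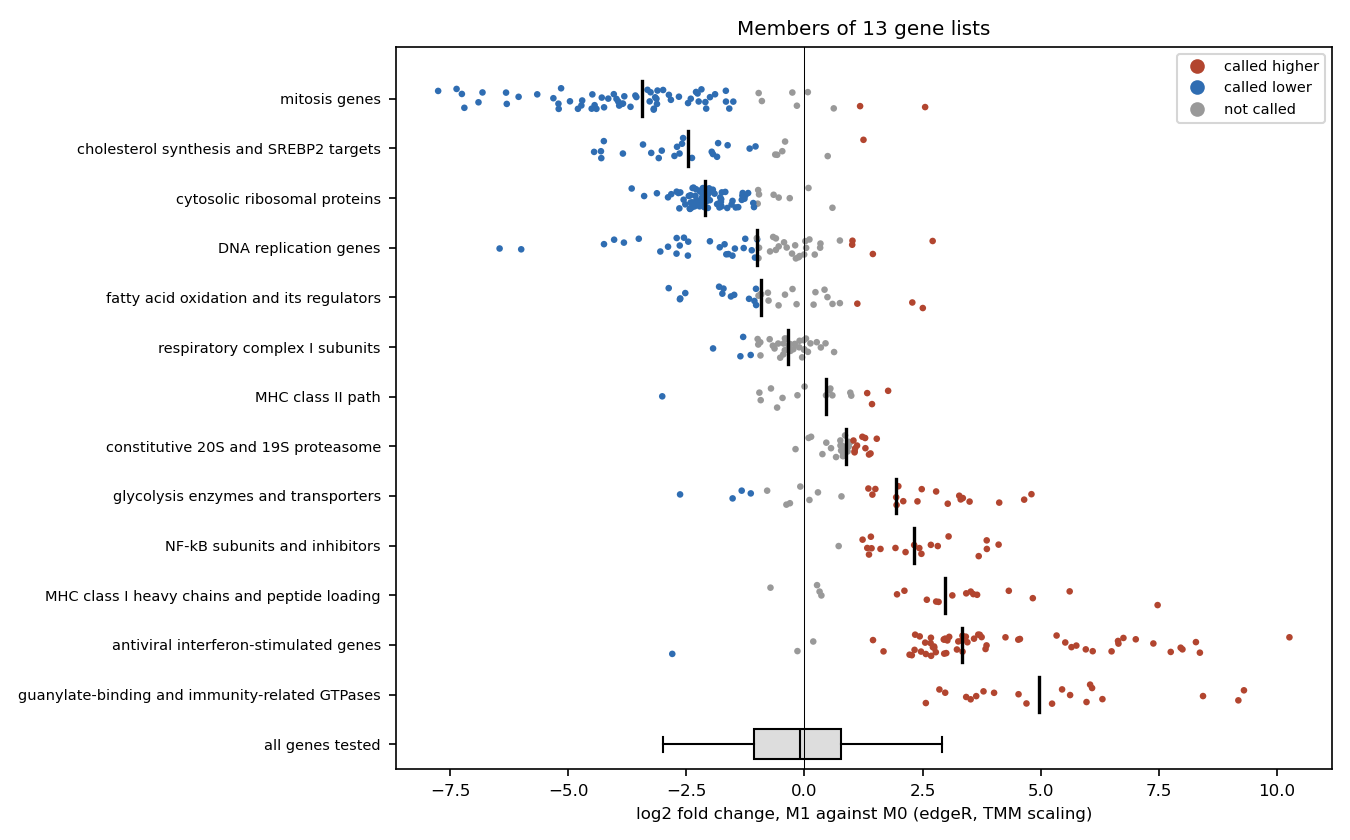
Log2 fold change of M1 against M0 (edgeR, TMM scaling) for each tested member of 13 gene lists, with a black bar at the list's median and the colour giving the call; the box for all genes tested spans the middle 50%, with whiskers at the 5th and 95th percentiles. Ribosomal protein genes form a narrow cluster around their median of -2.10, whereas mitosis genes are spread from -7.75 to 2.55.

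Ribosomal protein mRNAs are known for a run of pyrimidines at their start (the TOP element), through which the kinase mTOR controls their translation. A run of at least 7 C or T bases, on the strand of the gene, that begins no more than 5 bases before or 10 bases after the annotated start was found in 22 of 64 ribosomal protein genes with a window (34.4%), in 3 of 69 mitochondrial ribosomal protein genes (4.35%), in 12.4% of all genes and in 12.9% of tested genes. The 30-base stretches below belong to the 3 ribosomal protein genes with a run and the most counts in M0, and capitals mark the run. Of these Rps24, the member farthest from the rest, holds a run as well.
Rps24 (chr14:24490664-24490693, plus strand): ccgcgctggggTCCTTCCTTgcgcgttgat
Rpl13a (chr7:45128722-45128751, minus strand): cgacaagaCCTCCTCCTTTCCCaggcggct
Rpl27a (chr7:109519186-109519215, plus strand): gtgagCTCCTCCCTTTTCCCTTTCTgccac

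Initiation and elongation factors of translation fell in part. Of these genes, 4 of 62 rose and 26 fell, or 1 and 39 with library totals alone (median -0.69). Eef1a1, the abundant elongation factor, had 136690, 128877 and 128646 in M0 and 11884, 14286 and 12835 in M1 and fell by 3.34. Eef2k, the kinase that restrains elongation, had 1579.6, 1528 and 1658 in M0 and 54.7, 44.9 and 65.2 in M1 and fell by 4.81. Eif2ak2, the antiviral kinase PKR, and Eif4ebp1, a repressor of cap-dependent translation, rose by 2.30 ± 0.07 and 1.58 ± 0.07, the latter not with library totals alone. Of aminoacyl-tRNA synthetases, 3 of 20 rose and 5 fell, or 0 and 12 with library totals alone (median -0.48), and with TMM the count that fell is close to the 26% of all genes, with Vars at 1054, 1260.2 and 1105 in M0 and 116, 122 and 132 in M1 and Wars, which is induced by interferon in many cells, at 934, 972 and 913 in M0 and 2049, 2059 and 2238 in M1.

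**Figure D5:**
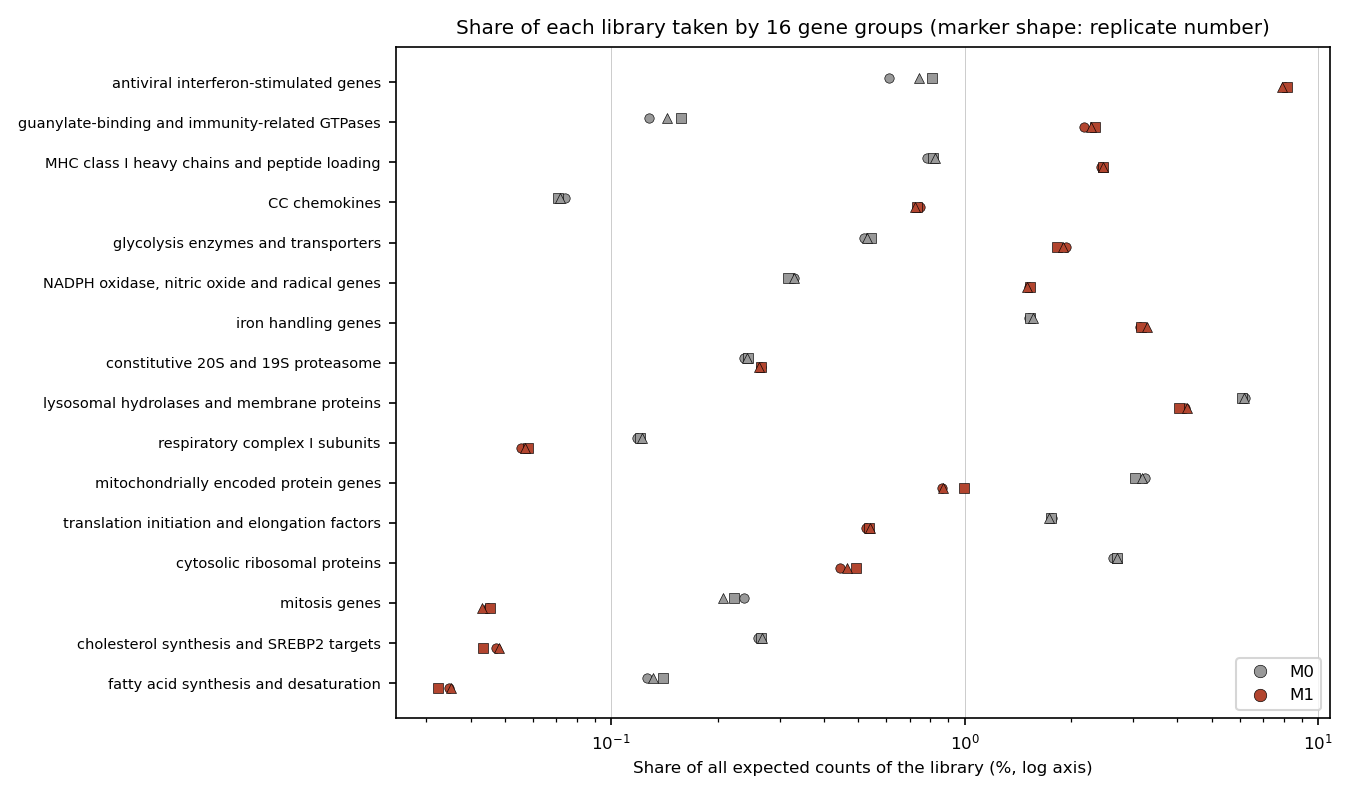
Share of all expected counts of a library (percent, log axis) taken by 16 gene groups, with grey points for the 3 M0 and red points for the 3 M1 libraries and the marker shape giving the replicate number. Antiviral genes go from 0.612 to 0.811% in M0 to 7.88 to 8.18% in M1, and cytosolic ribosomal protein genes from 2.62 to 2.70% to 0.445 to 0.494%. No drawn group overlaps between M0 and M1, as is so for 87.1% of single genes tested. The Toll-like receptor list, whose shares overlap, is not drawn.

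Stress genes of the endoplasmic reticulum and chaperones were mixed. Of the endoplasmic reticulum stress list, 9 of 36 rose and 6 fell, or 7 and 15 with library totals alone (median 0.15). With TMM these are 25% and 16.7%, beside 20.1% and 26% of all genes tested. Ddit3, which encodes the stress factor CHOP, had 317, 349 and 348 in M0 and 2151, 2381 and 2142 in M1, Hspa5, the main chaperone of the compartment, was short of 2-fold, and the serine synthesis gene Phgdh had 316, 423 and 366 in M0 and 45.8, 38.8 and 43.5 in M1. Among heat shock genes, 8 of 26 rose and 6 fell, or 3 and 13 with library totals alone (median -0.17). Their TMM shares, 30.8% and 23.1%, also stand beside 20.1% and 26% of all genes. Hspa1a, the inducible HSP70, had 21.7, 29.4 and 28.7 in M0 and 6028, 6317 and 5096 in M1, a difference of 7.78 ± 0.12. Mitochondrial chaperones were lower, with Hspd1 at 3382, 3354 and 3164 in M0 and 958, 1069 and 1054 in M1 and Hspe1 at 878, 954 and 955 in M0 and 150.2, 169 and 151 in M1.

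Receptors for uptake changed in both directions. Of scavenger, lectin and efferocytosis receptors, 16 of 44 rose and 15 fell, or 10 and 21 with library totals alone (median 0.18). Clec4e, the receptor Mincle for mycobacterial lipids, had 257, 247 and 302 in M0 and 14683, 16785 and 15729.7 in M1, Marco had 593, 452 and 639 in M0 and 9951, 8734 and 8689.6 in M1, and Msr1, the scavenger receptor A, had 4516, 3853 and 3843 in M0 and 32363, 32162 and 31809.8 in M1. Mrc1, the mannose receptor, had 52217, 47799 and 47098 in M0 and 2922, 3005 and 2603 in M1, Cd163, the receptor of haemoglobin complexes, had 732, 618 and 672 in M0 and 2.55, 8.16 and 1.14 in M1, and Trem2, a lipid sensor, had 7671, 7008 and 7347 in M0 and 1277, 1230.3 and 1425 in M1. The log2 differences of the last 3 genes were -4.11 ± 0.07, -7.64 ± 0.23 and -2.48 ± 0.06. Mertk and Axl, which bind apoptotic cells, were short of 2-fold.

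Among Fc receptors, which bind antibody, 3 of 9 rose and 3 fell, or 3 and 4 with library totals alone (median 0.24). Fcgr4 and Fcgr1, activating receptors, had 1869, 1919 and 1924 in M0 and 23421, 22804 and 22511 in M1 for Fcgr4 and 3160.0, 3801 and 3792 in M0 and 38981, 37877 and 37206 in M1 for Fcgr1. Fcgr2b, the inhibitory receptor, was short of 2-fold and Fcgrt, the recycling receptor, fell by 2.96. In the complement list, 10 of 22 rose and 4 fell, or 7 and 8 with library totals alone (median 0.61). C3 and Cfb, of the alternative pathway, had 2212, 2034 and 2413 in M0 and 73165, 73005 and 73318 in M1 for C3 and 62.9, 69.3 and 73 in M0 and 15160.5, 16346 and 16240.3 in M1 for Cfb. C1qa was short of 2-fold, and Cd93 fell by 4.58.

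Lysosome genes as a whole stayed near the background. Of hydrolases and membrane proteins, 15 of 64 rose and 14 fell, or 6 and 33 with library totals alone (median -0.30), and the share of counts was 6.1 to 6.21% of all expected counts in the M0 libraries and 4.05 to 4.26% in the M1 libraries. Ctsc and Ctsh, cathepsins, had 18606, 18295 and 19180.5 in M0 and 88612, 89119 and 96636 in M1 for Ctsc and 5102, 5198 and 5659.5 in M0 and 31911, 32405 and 34014 in M1 for Ctsh. Galc and Sgsh, which break down glycolipids and heparan sulphate, had 5849, 5159 and 5242 in M0 and 678, 632 and 718 in M1 for Galc and 2646, 2571 and 2585 in M0 and 186, 184 and 200.3 in M1 for Sgsh. Psap had overlapping values. Of vacuolar ATPase subunits, 3 of 19 rose and 2 fell, or 0 and 4 with library totals alone (median 0.19), with a fall of Atp6v0d2, which differed by -3.59 ± 0.10. Of autophagy genes, 6 of 40 rose and 3 fell, or 3 and 9 with library totals alone (median 0.38), and the receptor Sqstm1 had 7925, 7805 and 7582 in M0 and 40934, 40852 and 40552 in M1.

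Surface receptors for small ligands rose in many cases. Of purinergic, lipid and peptide receptors, 19 of 36 rose and 9 fell, or 15 and 13 with library totals alone (median 1.36). Fpr1 and Fpr2, sensors of bacterial formyl peptides, had 90, 57.2 and 78 in M0 and 7026, 7577 and 7393 in M1 for Fpr1 and 73.1, 74.5 and 85.4 in M0 and 5399, 5947 and 5583 in M1 for Fpr2. Adora2a, an adenosine receptor, had 34.5, 51.1 and 30.4 in M0 and 850.2, 992 and 924 in M1. P2ry12 and Gpr34, known from resting tissue macrophages, had 1082, 901 and 965 in M0 and 99.3, 108 and 113 in M1 for P2ry12 and 2316, 2021 and 2363 in M0 and 19.1, 18.4 and 11.4 in M1 for Gpr34, and neither was called between M1 and M2.

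Of integrins and adhesion molecules, 14 of 39 rose and 10 fell, or 7 and 13 with library totals alone (median 0.59). Itga5, the fibronectin receptor, had 1693, 1913 and 1775 in M0 and 30302, 27053 and 28095 in M1, and Itga6, a laminin receptor, had 8049, 7662 and 7879 in M0 and 932, 849 and 812 in M1. Of matrix metalloproteinases, ADAMs and TIMPs, 13 of 45 rose and 18 fell, or 9 and 22 with library totals alone (median -0.21). Mmp13, a collagenase, had 376, 558 and 478 in M0 and 27727, 27668 and 24541 in M1, and Adam22 had 577, 494 and 564 in M0 and 22.9, 12.2 and 17.2 in M1. Of circadian clock genes, 3 of 17 rose and 6 fell, or 1 and 9 with library totals alone (median -0.38). With TMM these are 17.6% and 35.3%, beside 20.1% and 26% of all genes tested. Dbp, a clock output factor, had 883, 958 and 1023 in M0 and 39.5, 38.8 and 40.1 in M1, and Nfil3, its antagonist, had 203, 243 and 242 in M0 and 1287, 1247 and 1352 in M1. Of the pentose phosphate path, 2 of 9 rose and 3 fell, or 0 and 4 with library totals alone (median -0.07), and G6pdx, which opens it, had 4296, 3871 and 4004 in M0 and 11188, 11754 and 11676 in M1.

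Genes that define the macrophage were called in both directions, at shares near those of all genes. Of 18 identity genes, 5 of 18 rose and 5 fell, or 3 and 9 with library totals alone (median -0.20). With TMM each share is 27.8%, beside 20.1% of all genes tested that rose and 26% that fell. Itgam, which encodes CD11b, had 12663, 10806 and 12111 in M0 and 52944, 49253 and 51021 in M1, and Spi1, the master factor PU.1, had 3883, 3871 and 4216 in M0 and 12238, 12666 and 11951 in M1, a rise not called with library totals alone. Adgre1, which encodes F4/80, and Cd68 were short of 2-fold at 0.37 ± 0.06 and -0.51 ± 0.05. Lyz2 had 213028, 186998 and 205049 in M0 and 75110.3, 68315 and 72465 in M1 and fell by 1.49.

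Grouping genes by the letters of their symbols gave 89 families with at least 15 members tested. Of 17 Ifi genes 15 rose and 1 fell, with a median of 4.11 (3.26 with genes near 0 set to their bound), and of 48 Il genes, interleukins and their receptors, 28 rose and 4 fell with a median of 1.61. Of 49 Rpl genes 0 rose and 45 fell, and of 43 Rps genes 2 rose and 30 fell; the Rps symbols also cover kinases. Of 33 Kif motor genes 3 rose and 19 fell, with a median of -1.34, and of 31 collagen genes 2 rose and 14 fell, with a median of -0.94. The collagen genes Col1a1 and Col1a2 are also among the stromal markers, so the lower marker sum is no separate observation. Of 96 olfactory receptor (Olfr) genes 48 rose and 2 fell with TMM, and 13 rose and 5 fell with library totals alone. The median mean count of Olfr genes was 32.6 in M0 and 69.3 in M1, and their highest member, Olfr56, shares exons with the interferon-induced gene Ifi47.

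Scaled per length, the most abundant mRNAs differed between M0 and M1. Normalised TPM of Fth1 was 10113, 10276 and 10495 in M0 and 79661, 80374 and 80970.1 in M1, the highest of M1. Ccl5, the next in M1, had 21.7, 22.5 and 29.8 in M0 and 33528, 30949 and 32169 in M1, followed by B2m, Ftl1 and Rsad2, which had 51.7, 70.6 and 66.5 in M0 and 13899.8, 13309 and 13247 in M1. Apoe led in M0, at 23279, 20723 and 23736 in M0 and 10988, 11044 and 11034 in M1 normalised TPM, and Lyz2 had 16575, 14138 and 15786 in M0 and 5743, 5206 and 5486 in M1. Selenop, a secreted selenium carrier, was among the 10 highest of M0, with 9427, 8571 and 9147 in M0 and 602, 592 and 653 in M1, and not of M1.

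Outside the 65 lists, the largest rises among genes with a mean normalised count of at least 1000 were of Clic5, a chloride channel family member, with 14.9, 14.7 and 8.21 in M0 and 34888, 35279.6 and 36842 in M1, Tarm1, an immune receptor, with 2.71, 0.866 and 1.64 in M0 and 3056, 3517 and 3266 in M1, and Saa3, an acute-phase protein, with 40.6, 45 and 45.1 in M0 and 47685, 49471 and 47143 in M1. Upp1, which degrades uridine, had 15.6, 25.1 and 10.7 in M0 and 4729, 5125 and 4754 in M1, and Procr, the protein C receptor, had 46.7, 87.5 and 62.4 in M0 and 16836, 15975 and 16760.0 in M1. Slc28a2, a nucleoside importer, Ms4a4c, Cd69, an activation marker, and Cst7, a cystatin, rose by 7.22 ± 0.09, 7.05 ± 0.15, 6.82 ± 0.10 and 6.62 ± 0.07. The largest falls were of Slco2b1, an organic anion transporter that was at least 513-fold lower, with 3101, 3006 and 3308 in M0 and 2.55, 0 and 1.14 in M1, of F13a1, the clotting factor XIII subunit, with 6803, 6356 and 7747 in M0 and 64.9, 65.3 and 63 in M1, and of Slc9a9, an endosomal sodium-proton exchanger, with 10308, 9357 and 9703 in M0 and 117, 97.9 and 128 in M1. Log2 differences were -5.80 ± 0.08 for Man2a2, -5.69 ± 0.12 for Sort1, -5.58 ± 0.10 for Rnf144b, -5.32 ± 0.19 for Acta2, -5.28 ± 0.07 for Cd28, -5.16 ± 0.08 for Sulf2 and -4.98 ± 0.10 for Reps2. Of these falls, Acta2 encodes smooth muscle actin and Cd28 a costimulatory receptor known from T cells. Cd28 was the only T cell marker with a high level in M0, and the next of them, Lck, was at 0.919 normalised TPM.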

How the data were processed

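The authors mapped reads of poly(A)-selected libraries to Ensembl mouse genes with Bowtie and deposited RSEM 1.2.3 expected counts per gene, which are not normalised; RSEM divides reads that match several genes. The authors also deposited a signal made from the same reads, median-by-ratio normalised TPM, used here for levels per length and in the limma alternatives. The submitters' notes name mm10. Digit libraries were not used.

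Expected counts were rounded, filtered with filterByExpr and TMM-scaled, and M1 was tested against M0, and M1 against M2, with edgeR 4.0.16 (R 4.3.3), glmQLFit and glmQLFTest, with Benjamini-Hochberg adjustment. The call rule was an adjusted p under 0.05 and over 2-fold of the mean normalised count plus 1. The study's own test was not run here. SE is the log2 difference divided by the root of F. The code was tested on simulated data. Replicates differed by more than sampling noise (chi-square per degree of freedom 3.26 to 10.9).

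The gene lists (65, with 1994 of 2008 entries matched) and the members were chosen with earlier results of these data known. Named genes are set members of each list, its 2 top rises and 2 top falls by fold among called members at a mean normalised count of at least 100, the 10 most abundant genes of each group, and the 10 largest rises and falls outside the lists at a mean of at least 1000. A gene at 3 counts or fewer in every library of a group is given as a bound, with a floor of 3 counts set in the library of lowest depth. Some of the named genes are not reported here. Promoters came from RefSeq (GRCm38.p6). Alternatives were DESeq2 1.42.0, RLE scaling, library totals alone, no filter, no fold threshold, all 9 macrophage libraries, a replicate block, each library left out, and limma 3.58.1 on log2 of normalised TPM plus 1 or plus 0.1.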

Additional observations from a re-analysis of the deposited data

How the results depend on the processing

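The counts of 2602 genes higher and 3359 lower in M1 than in M0 moved most with library totals alone (1384 and 5890) and without the fold threshold (5252 and 5842). With each library left out in turn they ran from 2607 to 2704 higher and from 3343 to 3442 lower, and those between M1 and M2 ran from 6281 to 6384 around 6208. DESeq2 gave 2731 and 3165, no filter 2919 and 3822, all 9 libraries 2419 and 3739, and limma 2240 to 2428 and 2324 to 2739. Replicate numbers are shared between groups, but same-numbered libraries did not deviate together (r across 9882 genes of -0.097 to -0.011, and of -0.096 to 0.133 between different numbers). With 3 libraries per group, these values cannot tell whether equal numbers share a mouse or culture. With a replicate block 2602 genes were higher and 3355 lower, with 6208 between M1 and M2. No named gene reversed its direction past the threshold under any of these settings. Of 452 named genes 380 were called, and 5 of them (among them Apoe, Il6ra, Nlrc3 and Vegfa) lost the call with some library left out. With library totals alone 38 lost and 27 gained it. Those that gained it include Nfe2l2, Myc, Cd68, C1qa, Fcgr2b, Sdha, mt-Co1 and H2-Eb1, given above as short of 2-fold. Of the 130 counts of called members per list and direction, 46 moved by over 1.5 times with library totals alone, 53 without the fold threshold and 1 to 9 under the other settings, other than the block with 0. Rounded counts limit genes near 3 counts, of which 80 rose and 232 fell from or to that level. The bounds given for such genes are ratios to the floor and carry no estimate of error.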
